A study of Mus musculus with 6 samples.

Results

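The genes described here are 10 readouts of the BMP and Notch pathways in Neuro2a cells, chosen by symbol: the Id factors Id1, Id2, Id3 and Id4, the Hes family repressors Hes1, Hes6 and Hey1, and the BMP feedback inhibitors Smad6, Smad7 and Bambi. Each symbol matched 1 row of the 24391 genes in the deposited table, and 9 of the 10 had enough counts to be tested; Hes1 had not. The study asked which transcripts differ when D-serine, an amino acid that acts at NMDA receptors together with glutamate, is added to cultures of this mouse neuroblastoma line. Cells were moved to the serum-supplemented medium D-MEM(-SG) with vehicle only (control, 3 libraries) or with 5 mM D-serine (3 libraries). RNA was taken after 18 h. Poly(A) RNA was sequenced, and total counts lay between 32518483 and 40024265 per library. The labels do not say whether the 3 libraries of a group came from separate cultures, so p-values measure the spread between these libraries, which may be technical. D-serine library 1 stood apart: counts differed by a chi-square of 17.7 and 13.9 per degree of freedom from those of D-serine libraries 2 and 3, against 3.88 to 6.54 within the other pairs of a group, and values without it are given where it decides a result.

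BMP ligands bind serine/threonine kinase receptors, which phosphorylate Smad1, Smad5 and Smad9. These enter the nucleus with Smad4 and switch on the Id genes, which are among the most direct BMP targets, together with Smad6, Smad7 and Bambi, which feed back to dampen the pathway. Id proteins have a helix-loop-helix domain but no basic region, so they hold bHLH partners such as the E proteins away from DNA and hold back neuronal differentiation. Notch receptors are cleaved upon binding Delta or Jagged ligands, and their intracellular part joins Rbpj and Mastermind proteins to induce Hes and Hey repressors, whereas Hes6 is known to oppose Hes1 and to accompany neuronal differentiation. Both pathways are read out through the same class of transcription factors in neural crest derived cells, from which neuroblastoma arises.

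Upstream sequence of the Id genes is shown because they are known BMP targets; of the 3 printed, Id2 passed the test described further on, and Id3 and Id4 did not. The 250 bases before each start site were taken from RefSeq on GRCm38.p6, where 5 members were matched (Id2, Id3, Id4, Hes6 and Smad6); Id1, Hes1, Hey1, Smad7 and Bambi were not matched. They were searched for GGCGCC, the core of the BMP response element, which is its own reverse complement, for the Smad element CAGAC on both strands (GTCTG on the other) and for the Rbpj site GTGGGAA on both strands (TTCCCAC on the other). None of these motifs overlaps another in the stretches printed. In the lines that follow, capitals mark the motif, and each stretch reads 5′ to 3′ on the strand of the gene.
Id2, chr12:25096263-25096342, minus strand: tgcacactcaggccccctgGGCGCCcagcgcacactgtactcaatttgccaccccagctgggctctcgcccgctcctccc
Id4, chr13:48260926-48261015, plus strand: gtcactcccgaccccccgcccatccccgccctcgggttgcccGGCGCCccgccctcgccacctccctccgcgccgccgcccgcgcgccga
Id3, chr4:136143645-136143669, plus strand: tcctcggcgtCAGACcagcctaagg
Id3, chr4:136143744-136143768, plus strand: acccttggcgGTCTGttttgaataa

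The GGCGCC core was found once upstream of Id2, with its first base at -231 from the start site, and once upstream of Id4, at -148. The bases after the RefSeq start of Id4 were not found in a GENCODE transcript of the gene, unlike those of the other matched members, so the position for Id4 holds for the RefSeq start only. The core was in 9.59% of the 32851 windows of the same length in the RefSeq table. The Smad element was found before the RefSeq start of Id3, at -167 and -68, in bases that the GENCODE annotation places in an exon, and once upstream of each of the 2 start sites listed for Hes6. It was in 42.2% of all windows. The Rbpj site, present in 5.42% of all windows, was in none of those of the 5 matched members, which says only that these letters are not in these 250 bases. A match describes the sequence and is not a measured binding site.

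Levels of different genes were compared per length, as depth-scaled counts (CPM, on TMM-adjusted library totals) divided by the summed exon length in kilobases (CPM per kb). Among the tested genes the median level was 9.88 CPM per kb in control. Id3 was the most abundant of the 10 genes, at 154 ± 7.55 CPM per kb in control (SD, n = 3), above 97.0% of tested genes. Id1 followed at 81.1 ± 2.80 CPM per kb, above 93.1% of tested genes. Next came Smad7 at 22.2 ± 1.95 and Id2 at 20.4 ± 0.37 CPM per kb, whose control libraries overlapped, and then Hey1 at 12.6 ± 0.52 CPM per kb. Hes6 (7.33 ± 0.81), Id4 (7.24 ± 0.048) and Bambi (7.21 ± 0.34 CPM per kb) overlapped each other, and Smad6 was lower at 3.66 ± 0.072 CPM per kb. With D-serine the order was the same except that Id2, at 24.9 ± 1.97 CPM per kb, stood above Smad7, at 20.95 ± 0.54 CPM per kb, with no overlap between their libraries.

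Hes1 (chromosome 16, 30065443 to 30067882 as deposited, plus strand), the classical Notch target, was close to absent from these cells. It had 4, 0 and 0 counts in control libraries 1 to 3 and 4, 0 and 1 counts in D-serine libraries 1 to 3. A count of 0 allows up to 3 counts in a library, so the groups could not be compared and no fold is given. Its level did not exceed 0.124 CPM in any library.

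Id1 and Id2 were higher with D-serine, by 17.8% and 21.7%, and Hey1 fell by 16.2%. In the edgeR quasi-likelihood test over all 13366 tested genes, with Benjamini-Hochberg adjusted p under 0.05, 3 of the 9 tested members passed, 2 higher and 1 lower. Over all tested genes 9.74% passed, 4.84% higher and 4.9% lower. The groups were fully separated in 5 of the 9 members, against 32.9% of all tested genes. The median log2 fold change of the 9 members was 0.088, and that of all tested genes was 0.0053. The members were chosen with earlier results of these data known, so these comparisons with all tested genes are descriptions only. In a bulk sample, a change in RNA per cell and a change in the share of cells that express a gene cannot be told apart.

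**Figure D1:**
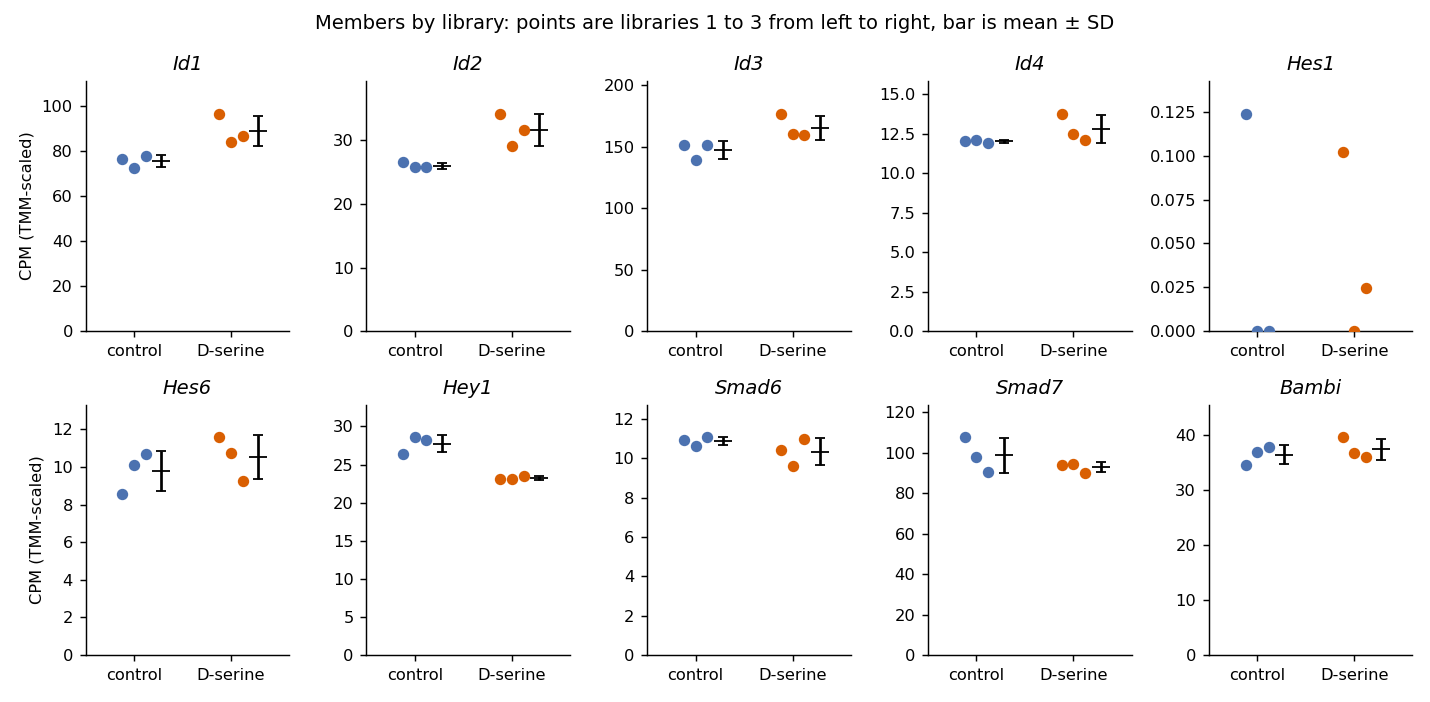
Depth-scaled counts (CPM, vertical axes starting at 0, scale differing between panels) of the 10 genes in each library. Points are libraries 1 to 3 from left to right in control (blue) and D-serine (orange), and the black bar is the mean ± SD of 3 libraries, left out for Hes1 because of its 0 counts. D-serine points lie above all control points for Id1, Id2, Id3 and Id4 and below them for Hey1.

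Id1 (chromosome 2, 152561987 to 152563146 as deposited, plus strand) measured 76.6, 72.8 and 77.8 CPM in control libraries 1 to 3 and 96.8, 84.0 and 86.8 CPM in D-serine libraries 1 to 3. All D-serine libraries lay above all control libraries, and D-serine library 1 was the highest. The mean rose from 75.7 ± 2.62 to 89.2 ± 6.72 CPM (SD, n = 3 each), a log2 fold change of 0.24 (SE 0.058, edgeR adjusted p = 0.0259).

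Id2 (chromosome 12, 25778664 to 25780957 as deposited, minus strand) measured 26.6, 25.7 and 25.8 in control and 34.2, 29.1 and 31.6 CPM with D-serine. The control libraries lay within 1 CPM of each other, and all D-serine libraries were above them. Its mean was 26.01 ± 0.47 CPM in control and rose to 31.6 ± 2.50 (log2 fold change of 0.28, SE 0.069, edgeR adjusted p = 0.0253), the largest difference among the 9 tested members.

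Id3 (chromosome 4, 135699737 to 135701307 as deposited, plus strand) measured 151, 139 and 151 in control and 177, 159.9 and 159.4 CPM with D-serine. The groups did not overlap, but the difference, 147 ± 7.196 against 165 ± 9.82 CPM, did not pass the threshold (log2 fold change 0.17, SE 0.053, edgeR adjusted p = 0.0601). It passed in 6 of 19 alternatives, among them the DESeq2 test (adjusted p = 0.0431), with upper quartile scaling (0.0389) and with library totals (0.0359).

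Id4 (chromosome 13, 48356796 to 48359405 as deposited, plus strand) measured 12.05, 12.07 and 11.9 in control and 13.8, 12.5 and 12.1 CPM with D-serine. D-serine libraries 2 and 3 lay close to the control libraries, and the log2 fold change was 0.088 (SE 0.085, edgeR adjusted p = 0.528), or 0.031 without D-serine replicate 1. Id4 shares 82 exonic bases with a transcript on the opposite strand, A330033J07Rik, and the strand setting of the counting is not given in the sources used here, so its counts are uncertain.

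The makeup of the Id family differed little between the groups. Summed per length, the 4 Id genes reached 263 ± 10.5 CPM per kb in control and 302 ± 19.7 CPM per kb with D-serine (SD, n = 3 each). Id3 made up 58.6% ± 0.56 of this sum in control and 57.6% ± 0.60 with D-serine, and Id1 made up 30.8% ± 0.29 and 31.7% ± 0.40. Id2 contributed 7.78% ± 0.27 and 8.24% ± 0.27, and Id4 contributed 2.76% ± 0.12 and 2.55% ± 0.054. These shares were not tested. The log2 fold changes of the 4 genes were above 0 in all 19 alternative fits, the lowest being 0.12 for Id1, 0.18 for Id2, 0.057 for Id3 and 0.0064 for Id4.

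Hey1 (chromosome 3, 8663359 to 8667038 as deposited, minus strand), a bHLH repressor induced by Notch and in some cells by BMP, went the other way. It measured 26.4, 28.6 and 28.2 in control and 23.1, 23.1 and 23.5 CPM with D-serine. All D-serine libraries lay below all control libraries and within 1 CPM of each other. Its mean of 27.7 ± 1.14 CPM in control fell to 23.2 ± 0.23 (SD, n = 3 each), and its log2 fold change was -0.26 (SE 0.063, edgeR adjusted p = 0.0262).

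The ratio of 2 genes within a library does not depend on how libraries are scaled, but a trend on gene length within a library can move it. Id1 (934 bases of exon) and Id2 (1272) are shorter than Hey1 (2205). The CPM of Id1 was 2.90, 2.55 and 2.76 times that of Hey1 in control libraries 1 to 3 and 4.19, 3.64 and 3.69 times in D-serine libraries 1 to 3. The ratio of Id2 to Hey1 was 0.94 ± 0.057 in control and 1.36 ± 0.11 with D-serine. Both ratios were higher in every D-serine library than in any control library. This follows from the separation of Id1, Id2 and Hey1 given above, adds nothing to it and was not tested.

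Hes6 (chromosome 1, 93308060 to 93309799 as deposited, minus strand) measured 8.58, 10.1 and 10.7 in control and 11.6, 10.7 and 9.26 CPM with D-serine. The groups overlapped, and the difference was below its error (log2 fold change 0.10, SE 0.11, edgeR adjusted p = 0.590). Leaving out control replicate 1 gave 0.020, and leaving out D-serine replicate 1 gave 0.026. With Hes1 near 0, Hey1 was the most abundant per length of the 3 Hes family members measured here, in both groups.

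None of the 3 feedback inhibitors passed the test in edgeR, DESeq2 or limma-voom, and none had an unadjusted p under 0.05 in edgeR. Smad7, an inhibitory Smad that blocks BMP and TGF-beta receptors, measured 108, 98.1 and 90.4 in control and 94.2, 94.6 and 90.3 CPM with D-serine. Its control libraries spread more than the groups differed (log2 fold change -0.085, SE 0.060, edgeR adjusted p = 0.378). Without control replicate 1 the log2 fold change was -0.017. Smad6, which acts mainly on the BMP branch (chromosome 9, 63800883 to 63869866 as deposited, minus strand), measured 10.9, 10.6 and 11.1 in control and 10.4, 9.63 and 10.99 CPM with D-serine (log2 fold change -0.073, SE 0.090, adjusted p = 0.634). Bambi, a receptor-like protein without a kinase domain that intercepts ligand signalling, measured 34.5, 36.8 and 37.8 in control and 39.5, 36.7 and 35.9 CPM with D-serine (log2 fold change 0.038, SE 0.062, adjusted p = 0.733). Bambi was at -0.0051 without D-serine replicate 1, and Smad6 was at -0.024 without D-serine replicate 2. In all 3 genes the groups overlapped.

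**Figure D2:**
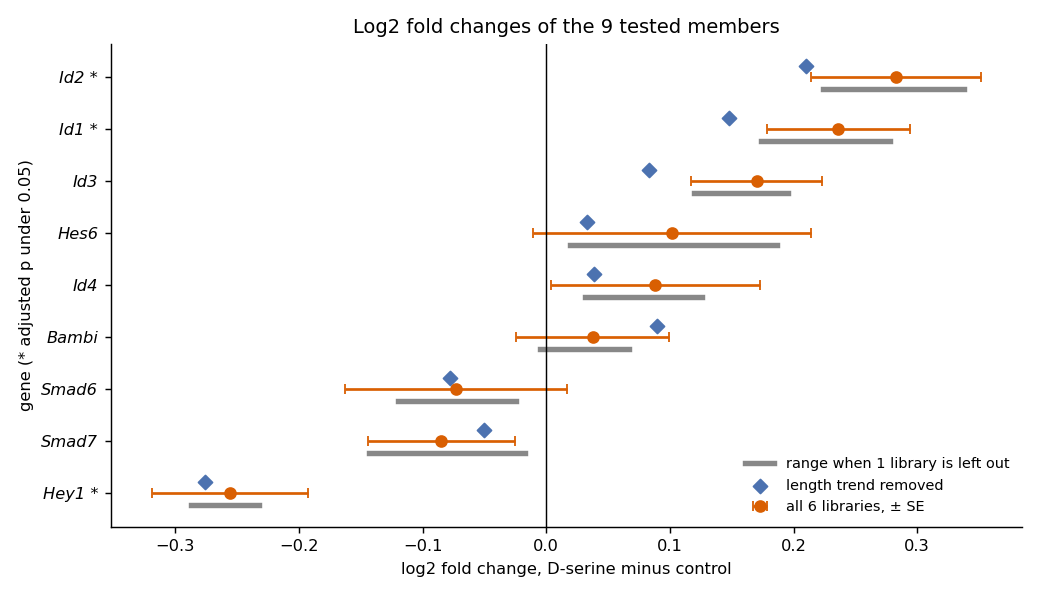
Log2 fold change (D-serine minus control, horizontal axis) of the 9 tested genes, with all 6 libraries ± SE (orange), with each library's trend on gene length removed (blue diamonds) and as the range over 6 fits that each left out 1 library (grey bars). Hey1 lies below 0 in all of them, whereas the diamonds of Id1, Id2 and Id3 lie closer to 0 than the orange points.

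The calls of Id1, Id2 and Hey1 were lost in some fits with 1 library left out, in which fewer of all tested genes passed too. Without control replicate 1, 2 or 3, or without D-serine replicate 3, 0 members passed in edgeR, although 4, 3, 5 and 4 of them had an unadjusted p under 0.05. Over all genes 125, 68, 453 and 291 passed in these fits, against 1302 with all 6 libraries. The highest adjusted p was 0.123 for Id1, 0.1004 for Id2 and 0.118 for Hey1, each without control replicate 2. Without D-serine replicate 1, the library that stood apart, each kept its call in edgeR. The log2 fold change was then 0.17 for Id1 (adjusted p = 0.0199) and 0.22 for Id2 (adjusted p = 0.0357), against 0.24 and 0.28 with all 6 libraries. That of Hey1 was -0.25 (adjusted p = 0.0233), against -0.26.

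Gene length moved with the result. The Id genes are short (934 bases of exon in Id1, 1272 in Id2, 953 in Id3 and 1660 in Id4), and shorter genes were on the whole higher with D-serine. Of the 4082 tested genes under 2000 bases, 7.08% passed as higher and 1.37% as lower, and their median log2 fold change was 0.069. Of the 9284 longer genes, 3.86% passed as higher and 6.45% as lower, with a median of -0.021. The slope of log2 CPM on log2 length, relative to the mean of the 6 libraries, was 0.036, 0.019 and 0.015 in control libraries 1 to 3 and -0.072, 0.0058 and -0.0040 in D-serine libraries 1 to 3 (exact two-sided permutation p = 0.1, the lowest value possible with groups of 3). D-serine library 1, in which Id1, Id2, Id3 and Id4 were all highest, had the steepest slope.

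With each library's length trend removed, the log2 fold change of Id1 was 0.15 (edgeR adjusted p = 0.0255), that of Id2 was 0.21 (adjusted p = 0.0267) and that of Id3 was 0.083 (adjusted p = 0.153), whereas that of Hey1 was -0.28 (adjusted p = 0.00682). In this fit 15.3% of all tested genes passed. Where the mean of the fitted trend was taken out as well, Id1 (0.12, adjusted p = 0.0754) and Id2 (0.18, adjusted p = 0.0525) did not pass and Hey1 did (-0.30, adjusted p = 0.00343). That step also changes the scaling of the libraries and moved log2 fold changes down in general. Over all genes 701 passed as higher and 1417 as lower, against 1023 and 1020 with the centred trend removed. The loss of Id1 and Id2 in it is therefore not particular to these genes. With the length trend removed and D-serine replicate 1 left out, Id1 (0.12, adjusted p = 0.0778) and Id2 (0.18, adjusted p = 0.0763) did not pass either, and Hey1 did (-0.26, adjusted p = 0.0159). Whether the differences of Id1 and Id2 and the length trend share an origin was not tested.

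**Figure D3:**
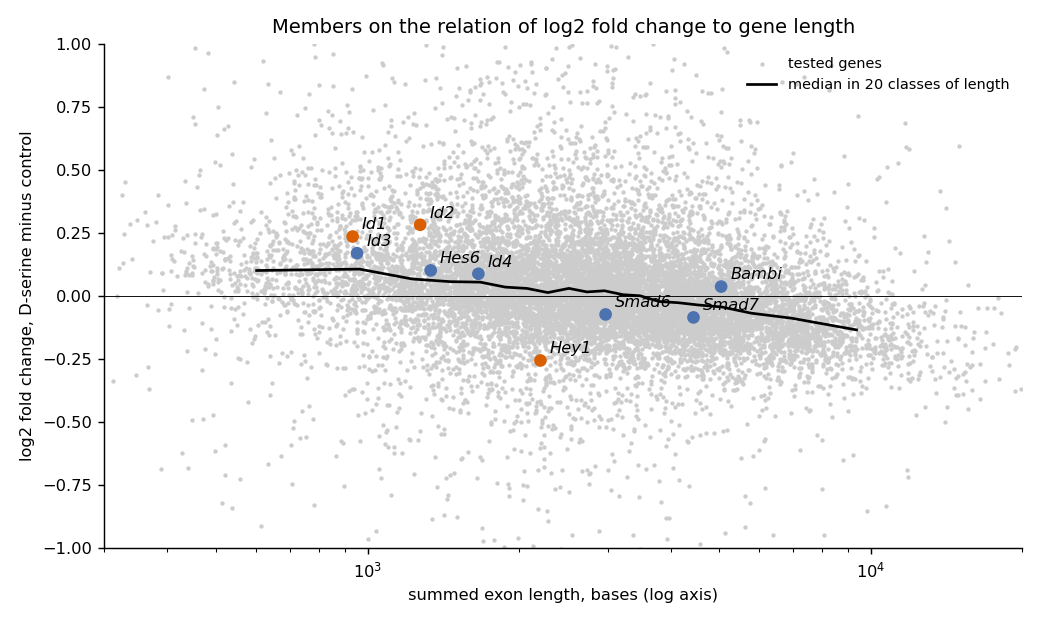
Log2 fold change (D-serine minus control, vertical axis, genes beyond 1 in either direction not drawn) against summed exon length in bases (log axis) for all tested genes (grey), with the median in 20 classes of length (black line) and the 9 tested members (orange, adjusted p under 0.05; blue, not). Id1, Id2 and Id3 lie above the line at its short end, where the line itself is above 0, and Hey1 lies below it.

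Profiles over the 6 libraries were compared as the root mean square difference of log2 CPM after centring each gene on its mean. Among members, Id1 was closest to Id3 (0.040) and Id2 (0.041), and the least alike were Id2 and Hey1 (0.28). Of 9844 other genes with at least 5 CPM, the 3 closest to Id1 were Acbd5 at 0.015, Coro1b at 0.022 and N6amt2 at 0.023. Acbd5 encodes a peroxisomal membrane protein that binds acyl-CoA, and its log2 fold change was 0.24. Coro1b encodes an actin-binding coronin (0.23). N6amt2 did not pass the test (0.21, edgeR adjusted p = 0.0770).

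The upstream parts of both pathways were then followed in 13 lists of BMP, TGF-beta, Notch and bHLH genes. The lists were written with earlier results of these data known, so the shares that follow are descriptions only. Of the listed genes, 106 were tested. In edgeR 14 of them passed, 1 higher and 13 lower (13.2%, against 9.74% of all tested genes), and their median log2 fold change was -0.050. Their median exon length was 3790.5 bases, against 2834.5 bases over all tested genes. With the length trend removed, 4 passed as higher and 17 as lower, with a median of -0.015. The split was 2 higher and 9 lower with upper quartile scaling and 2 higher and 8 lower with library totals. Without control replicate 2, 0 of them passed although 28 had an unadjusted p under 0.05, and without control replicate 1, control replicate 3 or D-serine replicate 3 there were 1, 6 and 5. Over all genes 68, 125, 453 and 291 passed in these fits, in the same order.

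**Figure D4:**
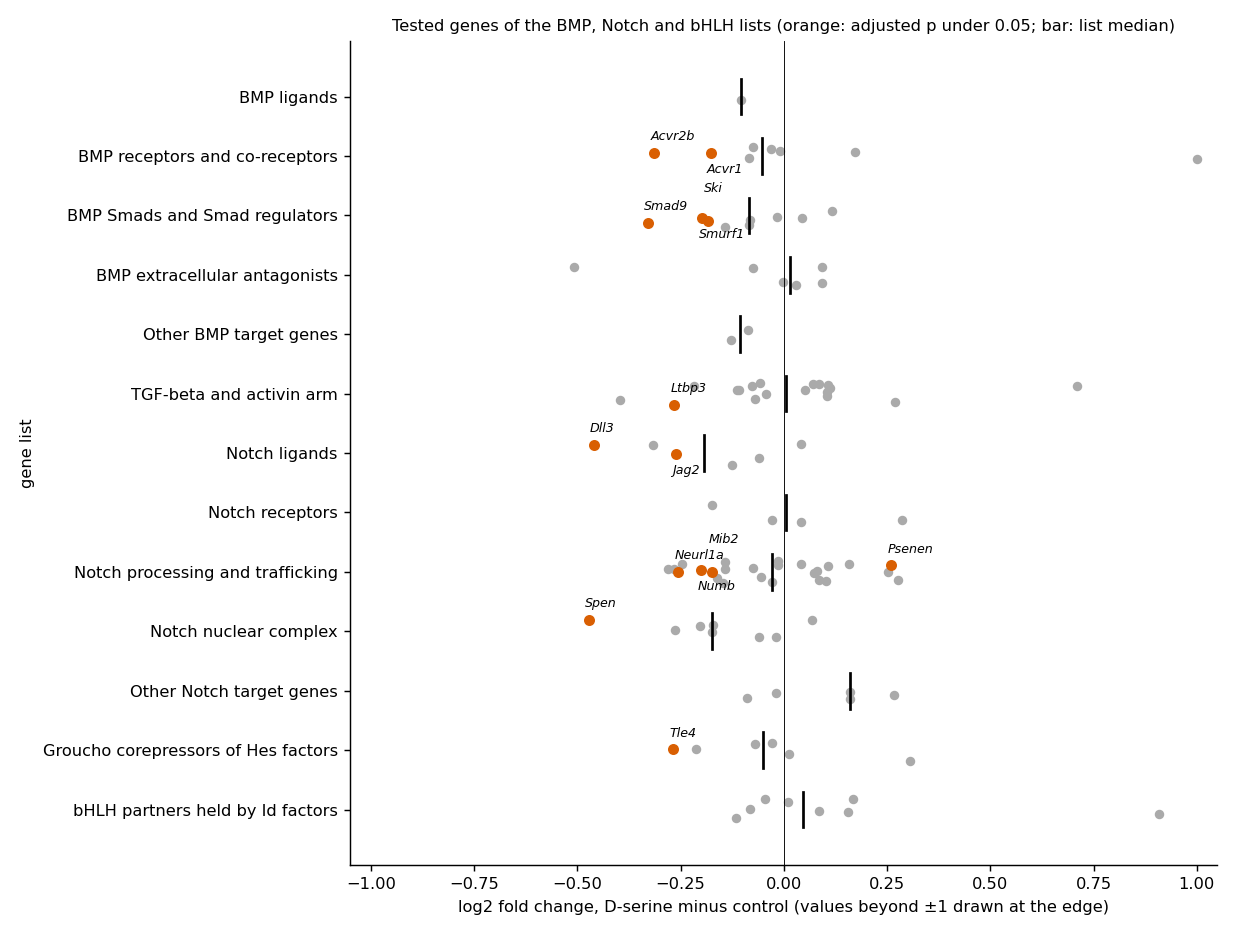
Log2 fold change (D-serine minus control, horizontal axis) of the tested genes of 13 lists (vertical axis). Orange points, with names, have an adjusted p under 0.05, grey points do not, and the black bar is the median of the list. Of the 14 orange points, 13 lie below 0, and Psenen lies above.

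Of 13 BMP ligands, only Gdf7 was expressed enough to be tested, at 11.4 ± 2.05 in control and 10.6 ± 1.02 CPM with D-serine (log2 fold change -0.10, edgeR adjusted p = 0.627). The highest count of any of the others in any library was 14. Of 8 tested receptors and co-receptors, 2 were lower and 0 higher (25%, against 9.74% of all tested genes). Acvr1, a type I BMP receptor, measured 62.7, 64.4 and 64.9 in control and 57.0, 56.7 and 56.0 CPM with D-serine (log2 fold change -0.18, SE 0.047, adjusted p = 0.0349). Acvr2b, a type II receptor for activins and BMPs, fell from 17.1 ± 1.74 to 13.8 ± 0.59 CPM (-0.31, SE 0.088, adjusted p = 0.0409). Neither group overlapped the other in these genes, and each lost its call in 8 of 19 alternatives, among them upper quartile scaling and library totals. Acvrl1, another type I receptor, had a larger difference at very low counts, 15, 2 and 8 in control against 35, 17 and 44 with D-serine. Its groups did not separate at the level of CPM, and it did not pass (log2 fold change 1.77, SE 0.56, adjusted p = 0.0603 in edgeR), although it did in 5 of 17 alternatives, the length trend removed among them (adjusted p = 0.0295).

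Of 9 Smads and Smad regulators, 3 were lower and 0 higher (33.3%, against 9.74% of all tested genes). Smad9, a receptor Smad of the BMP branch, measured 49.7, 49.6 and 49.3 in control and 35.3, 40.4 and 42.4 CPM with D-serine. The control libraries were nearly equal and all D-serine libraries lay below them, library 1 the lowest (log2 fold change -0.33, SE 0.066, edgeR adjusted p = 0.0133). Smurf1, a ubiquitin ligase that degrades BMP Smads, fell from 167 ± 3.19 to 145 ± 7.47 CPM (-0.20, adjusted p = 0.0232). Ski, a nuclear corepressor of Smads, fell from 158 ± 2.06 to 139 ± 5.18 CPM (-0.18, adjusted p = 0.0231). Smurf1 and Ski each lost the call in 5 of 19 alternatives, and Smad9 in 2. Smurf1 and Ski are known to restrain the pathway, whereas Smad9 belongs to its signal transducers. Smad5, also a receptor Smad of the BMP branch, overlapped between the groups and did not pass (0.12, edgeR adjusted p = 0.191). It passed as higher in 5 of 19 alternatives, the length trend removed among them (0.21, adjusted p = 0.00165).

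Among 6 tested extracellular antagonists, 0 passed in edgeR, DESeq2 or limma-voom and 0 had an unadjusted p under 0.05. The smallest p belonged to Fstl1 (log2 fold change 0.093, edgeR adjusted p = 0.252). Of the other BMP target genes, Msx1, Msx2 and Dlx5 were too low to be tested, and the remaining 2 did not pass by any of the 3 tools or at an unadjusted p under 0.05. Of these, Atoh8 had the smaller p (-0.087, edgeR adjusted p = 0.414). In the TGF-beta and activin arm 1 of 18 tested genes passed (5.56%, against 9.74% of all tested genes). This was the latent TGF-beta binding protein Ltbp3, which fell from 62.9 ± 2.92 to 52.3 ± 1.37 CPM (-0.27, SE 0.053, edgeR adjusted p = 0.0133). Ltbp3 lost its call in 2 of 19 alternatives. Its counts are uncertain, since the strand setting of the counting is not given in the sources used here. The list had a median log2 fold change of 0.0047, close to that of all tested genes.

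On the Notch side, 2 of 6 tested ligands were lower and 0 higher, with a median log2 fold change of -0.19. Jag2, a Notch ligand of the Jagged type, measured 131, 129 and 127 in control and 103, 110.4 and 109 CPM with D-serine. The groups were well apart (log2 fold change -0.26, SE 0.046, adjusted p = 0.00913 in edgeR), and Jag2 lost its call only without control replicate 1 or 2, with a highest adjusted p of 0.0544. Dll3, a Delta-like protein that hinders Notch signalling from within the same cell, fell from 7.204 ± 1.03 to 5.24 ± 0.60 CPM (-0.46, SE 0.14, adjusted p = 0.04996), just inside the threshold, and passed in 7 of 19 alternatives. None of the 4 receptors passed in edgeR, DESeq2 or limma-voom or had an unadjusted p under 0.05. Notch2 had the smallest p of them (-0.17, SE 0.087, edgeR adjusted p = 0.211).

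Of 25 genes of Notch processing and trafficking, 3 were lower and 1 higher (16%, against 9.74% of all tested genes). Neurl1a, which helps ubiquitin-driven uptake of Notch ligands, measured 42.8, 40.9 and 41.6 in control and 35.2, 35.2 and 34.5 CPM with D-serine (log2 fold change -0.26, SE 0.054, edgeR adjusted p = 0.0149). Mib2, a ubiquitin ligase for ligands (-0.17, adjusted p = 0.0388), and Numb, which directs Notch receptors to degradation (-0.20, adjusted p = 0.0320), fell too. Mib2 lost its call in 8 of 19 alternatives, Numb in 6 and Neurl1a in 4. Psenen, a subunit of the gamma-secretase that cleaves Notch, rose from 40.8 ± 2.07 to 48.9 ± 2.70 CPM (0.26, SE 0.061, adjusted p = 0.0222). With 650 bases of exon it is shorter than any Id gene, and its log2 fold change was 0.17 with the length trend removed (adjusted p = 0.0348). Psenen lost its call in 6 of 19 alternatives.

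In the nuclear complex of Notch 1 of 8 genes passed (12.5%, against 9.74% of all tested genes), with a list median of -0.17. Spen, a large corepressor that keeps Rbpj targets silent, measured 505, 472 and 447 in control and 259, 383 and 384 CPM with D-serine. D-serine library 1 stood apart, and the log2 fold change was -0.47 (edgeR adjusted p = 0.0229, SE 0.11), or -0.32 with the length trend removed (adjusted p = 0.000677). Without D-serine replicate 1 it was -0.31 (adjusted p = 0.000107), and with both changes -0.24. With 12299 bases of exon, Spen is far longer than any member, and it shares 48 exonic bases with Zbtb17 on the opposite strand. Spen lost its call in 4 of 19 alternatives, the DESeq2 test among them (adjusted p = 0.0601).

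Other Notch targets were low, and 0 of the 5 tested genes passed in edgeR, DESeq2 or limma-voom or had an unadjusted p under 0.05. Hes5, the one with the smallest p, measured 3.66 ± 0.61 in control and 4.11 ± 0.22 CPM with D-serine (log2 fold change 0.16, edgeR adjusted p = 0.539). Of the 6 Groucho corepressors, through which Hes and Hey proteins silence their targets, 1 passed (16.7%, against 9.74% of all tested genes). Tle4 measured 139, 142 and 144 in control and 119, 117 and 117 CPM with D-serine. Both groups were tight and far apart for their spread (log2 fold change -0.27, SE 0.041, adjusted p = 0.00588 in edgeR), and Tle4 passed in 18 of 19 alternatives, missing the threshold without control replicate 2 (adjusted p = 0.0501).

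The bHLH factors that Id proteins are known to bind, directly or through E proteins, gave no call. Of 22 listed genes 8 were tested, and 0 passed in edgeR, DESeq2 or limma-voom, with 1 at an unadjusted p under 0.05. The smallest p belonged to the E protein Tcf12, at 169 ± 1.73 in control and 156 ± 8.16 CPM with D-serine (log2 fold change -0.12, SE 0.047, edgeR adjusted p = 0.125). The list had a median log2 fold change of 0.047.

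The labelled cell type was checked against marker genes. Of 18 neuroblastoma and neuron markers 16 had a mean of at least 1 CPM. Among them was Hand2, a lineage factor of sympathetic neuroblasts, at 242 ± 5.23 CPM in control (SD, n = 3). Th (1.49 ± 0.44 CPM) and Dbh (1.53 ± 0.37 CPM) were close to this bound in control. Nefl and Nefm, with at most 6 counts in any library, were too low to be tested. The summed level of the list ran from 2248 to 2330 in control and from 2366 to 2482 CPM with D-serine. Of its 16 tested genes 2, Tubb3 and Mycn, passed as higher (12.5%, against 9.74% of all tested genes). Of 7 fibroblast markers 2 reached 1 CPM, Col3a1 and Lum had no count in any library, and the sum ran from 25.2 to 29.4 CPM in control and from 19.0 to 25.3 CPM with D-serine. Of the 3 fibroblast markers tested 1 passed, Pdgfrb, at 21.9 ± 2.04 CPM in control and lower, at 17.0 ± 2.24 CPM, with D-serine (log2 fold change -0.37, SE 0.10, edgeR adjusted p = 0.0370). Of 6 glia markers 1 reached 1 CPM, Aqp4 had no count, and the sum stayed at or below 3.02 CPM in every library. The part of these markers in the differences of the Id genes and Hey1 was not tested.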

How the data were processed

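Raw counts, as the authors deposited them, come as 1 table with the summed exon length of each gene for 3 control and 3 D-serine libraries. Trim Galore, HISAT2 and featureCounts (Subread), with GRCm38 and mm10, are named in the submitters' processing notes; versions, strand setting and treatment of multi-mapping reads are not given in the sources used here. Of 23172 symbols matched to a GRCm38 gene table, 314 had the same start, so positions of genes are given as deposited, 1-based, from a build the table does not name, and are separate from the GRCm38.p6 positions of the RefSeq sequences. Columns named vehicle were taken as the control samples with the same number.

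Counts were tested with edgeR 4.0.16 in R 4.3.3 (filterByExpr, TMM scaling, quasi-likelihood F test over 13366 genes, Benjamini-Hochberg, two-sided, threshold 0.05). The code was tested on simulated data. The standard error is the log2 fold change divided by the square root of F. CPM were computed from the deposited counts with TMM-adjusted library totals. Libraries of a group differed by a chi-square of 3.88 to 17.7 per degree of freedom, so none was treated as a repeat. For library depth the exact two-sided permutation p was 0.4, where 0.1 is the smallest that these groups allow. Length and GC trends per library were natural splines with 5 degrees of freedom, centred to keep the TMM scaling; GC came from GENCODE transcripts for 96.2% of tested genes and all 10 members. Other alternatives were DESeq2 1.42.0, limma-voom (limma 3.58.1), other scalings and filters, a replicate block and leaving out each library.

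The members and lists were chosen with earlier results of these data known. Genes named were all members, per pathway list those past the threshold (at most 5) or else the 1 with the smallest p, and the 3 genes closest to Id1; Hes1 was too low for this. Acvrl1, Smad5, Hand2, Th, Dbh, Tubb3, Mycn, Pdgfrb and marker genes or list members at 0 or too low to be tested were named after their values were seen.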

Additional observations from a re-analysis of the deposited data

How the results depend on the processing

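Of the alternatives, 3 were chosen after seeing the data: GC content, the mean of the length trend, and the length trend with D-serine replicate 1 left out. The cause of the changes was not tested except that fits leaving out a library had fewer samples. The count over all genes (1302) was 298 with a replicate block, 2043 with the length trend removed and 2118 with its mean removed too. The count of members (3) was 0 with the block, although 4 had an unadjusted p under 0.05 in edgeR, 1 with the length trend and its mean removed and 1 with the length trend removed and D-serine replicate 1 left out. The count of pathway list genes (14) was 4 with the block and 22 with the length trend and its mean removed. Leaving out 1 library gave from 68 to 1699 genes, from 0 to 4 members and from 0 to 19 pathway list genes, with 68 genes called without control replicate 2. Without control replicate 1 there were 125 genes, without control replicate 3 there were 453 and without D-serine replicate 3 there were 291.

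Same-numbered libraries of the groups did not deviate together (correlations of -0.069, 0.020 and -0.019 over genes for numbers 1 to 3). These correlations rest on 3 libraries per group, centred within the group, and D-serine library 1 stood apart. They therefore cannot decide whether same-numbered libraries were handled together. Not every library correlated best with its own number. With the block, adjusted p-values were 0.0549 for Id1, 0.0544 for Id2 and 0.0655 for Hey1 in edgeR. With the block and the length trend removed, 3 members passed.

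Signs turned for Hes6 (-0.012) and Notch2 (0.013) with the length trend removed and D-serine replicate 1 left out, and for Bambi (-0.0051) without D-serine replicate 1, its highest value with a library left out being 0.067; none of these was past the threshold in any fit. Over all genes, 647 were higher and 655 lower, against 914 and 412 with upper quartile scaling and 944 and 412 with library totals. With the length trend and its mean removed, 701 were higher and 1417 lower. Among the 9 tested members the standard error was largest for Hes6 (0.11), Smad6 (0.090) and Id4 (0.085), and Hes1 could not be compared. Whether low counts or the spread between libraries set this precision was not tested.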
